A study of Mus musculus with 4 samples.

Results

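The genes described here are 10 CC chemokines of the mouse, Ccl2, Ccl3, Ccl4, Ccl5, Ccl6, Ccl7, Ccl9, Ccl12, Ccl22 and Ccl24, found by their symbols among the 54532 genes of a table of read counts. The table holds 4 RNA-seq libraries of peritoneal macrophages, and each of the 10 genes has a row with a value for every library, 0 included. The macrophages were wild type and, per the methods of the study, came from BALB/c mice injected with thioglycollate broth, an irritant that draws macrophages into the peritoneal cavity. They were cultured in normal medium or in 30% 4T1-CM, the conditioned medium of 4T1, a cell line from a mammary carcinoma of the mouse. In each medium they received either DMSO, the solvent, or 10 µM CH223191, an antagonist of the aryl hydrocarbon receptor (AHR). Each of the 4 combinations is 1 library, how many mice went into it and how long the treatment lasted are not given in the sources used here, and the methods describe compounds that were present before as well as during the culture in conditioned medium.

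CC chemokines are small secreted proteins that carry a pair of neighbouring cysteines near the start of the mature chain and guide leukocytes through G protein-coupled receptors. Ccl2, Ccl7 and Ccl12 bind CCR2 and draw monocytes out of the blood, while Ccl3, Ccl4 and Ccl5 draw T cells and myeloid cells. Ccl6 and Ccl9 are CCR1 ligands of rodents that macrophages make without acute stimulation. Ccl22 binds CCR4, a receptor of regulatory T cells, and Ccl24 binds CCR3, a receptor of eosinophils.

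The libraries held between 15535405 and 17557127 reads, and 3 reads correspond to between 0.171 and 0.189 CPM, the unit of reads scaled to a common library size. There was no replicate, so no pair of libraries could be tested, and every 95% interval below was computed by the exact Clopper-Pearson method from the share of a gene's reads that fell in either library of a pair. Such intervals cover counting error only and compare libraries, not conditions. All 8 macrophage markers were kept after the filter on low counts, and their summed level was 14303 and 18500 CPM in normal medium, without and with CH223191, and 40651 and 43449 CPM in 4T1-CM. Among 9 neutrophil markers, S100a9, Ly6g and Retnlg had no read in any library. S100a8 had 99, 190, 560 and 412 reads and Mmp8 had 35, 21, 2142 and 759, in the same order of libraries. This order is kept for all values given in fours below. Cxcr2 of the same list, by contrast, had 12, 9, 2 and 0 reads and was at least 2-fold lower in 4T1-CM. It passed the filter only through normal medium with DMSO, where it was highest, so that call gives no support. The summed level of 6 fibroblast markers was 63.0, 30.1, 149 and 127 CPM. The monocyte marker Ly6c2 and the eosinophil markers Prg2 and Epx had no read, and the 5 eosinophil markers summed to 16.2, 14.4, 6.17 and 5.97 CPM, nearly all of it Siglecf. These sums were higher in both 4T1-CM libraries for macrophages, neutrophils and fibroblasts. Lyz2 alone gave 11888 CPM in normal medium and 32957 CPM in 4T1-CM of the macrophage sums with DMSO. Among the fibroblast markers, Pdgfra had 91, 49, 83 and 70 reads and Lum had 3, 0, 0 and 0. The part of these cell types in the results below was not tested, and in bulk RNA fewer cells of a type and less RNA per cell cannot be told apart.

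The cysteine pair that gives the family its name was located in the coding sequence of each gene. The stretches are shown because they are what these genes share in spite of their different behaviour in the libraries, with the 2 cysteine codons in capitals, 5′ to 3′ on the coding strand, from the GENCODE M21 transcripts of GRCm38.
Ccl2 (chr11:82036488-82036529, plus strand): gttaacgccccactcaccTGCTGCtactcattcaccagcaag
Ccl7 (chr11:82046520-82046561, plus strand): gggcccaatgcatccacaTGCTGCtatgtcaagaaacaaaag
Ccl12 (chr11:82102616-82102657, plus strand): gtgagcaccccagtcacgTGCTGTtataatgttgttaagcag
Ccl3 (chr11:83648634-83648675, minus strand): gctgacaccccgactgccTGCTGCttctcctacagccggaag
Ccl4 (chr11:83663464-83663505, plus strand): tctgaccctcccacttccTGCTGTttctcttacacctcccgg
Ccl5 (chr11:83529224-83529265, minus strand): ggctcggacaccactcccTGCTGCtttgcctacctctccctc
Ccl6 (chr11:83589368-83589409, minus strand): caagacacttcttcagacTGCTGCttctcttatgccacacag
Ccl9 (chr11:83575908-83575949, minus strand): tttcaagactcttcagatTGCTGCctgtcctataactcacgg
Ccl22 (chr8:94746916-94746957, plus strand): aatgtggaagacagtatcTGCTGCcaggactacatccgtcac
Ccl24 (chr5:135572647-135572688, minus strand): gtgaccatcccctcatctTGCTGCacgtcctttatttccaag
The pair was written TGCTGC in 8 of the genes and TGCTGT in Ccl4 and Ccl12, and in Ccl24, where an earlier pair also occurs in the leader, the later pair is shown. It lay in exon 2 of the 8 genes with 3 coding-transcript exons and in exon 3 of Ccl6 and Ccl9, which have 4. Over the 45 pairs of coding sequences, the identity of aligned bases ranged from 56.5% to 70.7% with a median of 61.8%, and the closest pairs were Ccl6 with Ccl9 at 70.7%, Ccl3 with Ccl4 at 69.6% and Ccl7 with Ccl12 at 68.1%. As to near-identical copies, 9 of the genes shared no run of 50 bases with a transcript of another gene, and Ccl9 shared 1.97% of its runs.

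RefSeq promoters on GRCm38.p6 were at hand for 5 of the 10 genes, Ccl3, Ccl6, Ccl9, Ccl12 and Ccl22. The 250 bases before the start of Ccl3, Ccl6 and Ccl9 are shown because these neighbours on chromosome 11 carried most of the chemokine RNA and were all higher in 4T1-CM with DMSO. Capitals mark every match, on either strand, to TATAAA (core promoter element, present in 12.4% of the 32851 promoters of the same length), TGANTCA (AP-1, 6.75%), TTCNNNGAA (STAT, 7.02%), GCGTG (AHR core, 28.2%), TTGCNNAA (C/EBP, 9.56%), GAGGAA (PU.1, 23.3%) or the NF-kB consensus (3.90%).
Ccl3 (chr11:83649379-83649628, minus strand): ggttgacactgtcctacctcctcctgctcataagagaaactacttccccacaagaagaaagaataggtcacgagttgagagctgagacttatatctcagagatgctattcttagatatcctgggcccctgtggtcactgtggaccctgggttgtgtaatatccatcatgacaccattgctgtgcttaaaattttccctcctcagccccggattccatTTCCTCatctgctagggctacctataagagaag
Ccl6 (chr11:83593088-83593337, minus strand): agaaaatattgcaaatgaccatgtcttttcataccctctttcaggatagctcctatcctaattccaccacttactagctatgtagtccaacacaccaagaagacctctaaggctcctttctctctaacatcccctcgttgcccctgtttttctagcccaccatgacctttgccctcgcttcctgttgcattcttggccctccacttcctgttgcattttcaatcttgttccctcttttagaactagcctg
Ccl9 (chr11:83578637-83578886, minus strand): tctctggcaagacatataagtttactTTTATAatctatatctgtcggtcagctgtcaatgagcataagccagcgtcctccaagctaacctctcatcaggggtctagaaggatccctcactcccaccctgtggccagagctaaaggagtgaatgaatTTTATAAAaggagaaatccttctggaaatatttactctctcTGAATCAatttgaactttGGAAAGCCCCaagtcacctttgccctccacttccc
Ccl9 held TATAAA on both strands from -94 to -87 and once more from -224 to -219, TGANTCA from -53 to -47 and the NF-kB consensus from -35 to -26, all counted from the start. Ccl3 held a single GAGGAA on the minus strand, from -33 to -28. Neither Ccl6 nor Ccl22 held any of the letters searched, and Ccl12 held TATAAA from -31 to -26 and GAGGAA from -130 to -125. The AHR core was found in none of the 5 windows, which says only that GCGTG is not in these 250 bases. The matches are descriptions of letters and not sites of binding.

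The level of the family as a whole differed between the media. In TPM, which divides reads by gene length so that genes can be compared with each other, the 10 genes summed to 900 (DMSO) and 1124 (CH223191) in normal medium and to 1601 (DMSO) and 1770 (CH223191) in 4T1-CM. The 2 libraries of 4T1-CM were thus above both libraries of normal medium. Ccl6 was the most abundant member in every library, from 336 to 1007 TPM, and it alone made up 37.4% of the family in the first library and 56.9% in the last. Together, Ccl6, Ccl9 and Ccl3 made up 80.6%, 85.6%, 89.2% and 92.7% of the family TPM in the 4 libraries, in the order just given. Ccl3 ranked above Ccl9 in both libraries of normal medium, and Ccl9 ranked above Ccl3 in both libraries of 4T1-CM. Ccl2 and Ccl4 followed between 44.1 and 85.0 TPM, with Ccl4 above Ccl2 in normal medium by little, 78.5 against 76.2 TPM with DMSO and 73.8 against 73.2 TPM with CH223191, and below it in 4T1-CM. The remaining members stayed under 20 TPM, with Ccl7 at most at 19.3 TPM, Ccl5 at 18.7 TPM, Ccl22 at 4.39 TPM and Ccl24 at 2.13 TPM.

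**Figure D1:**
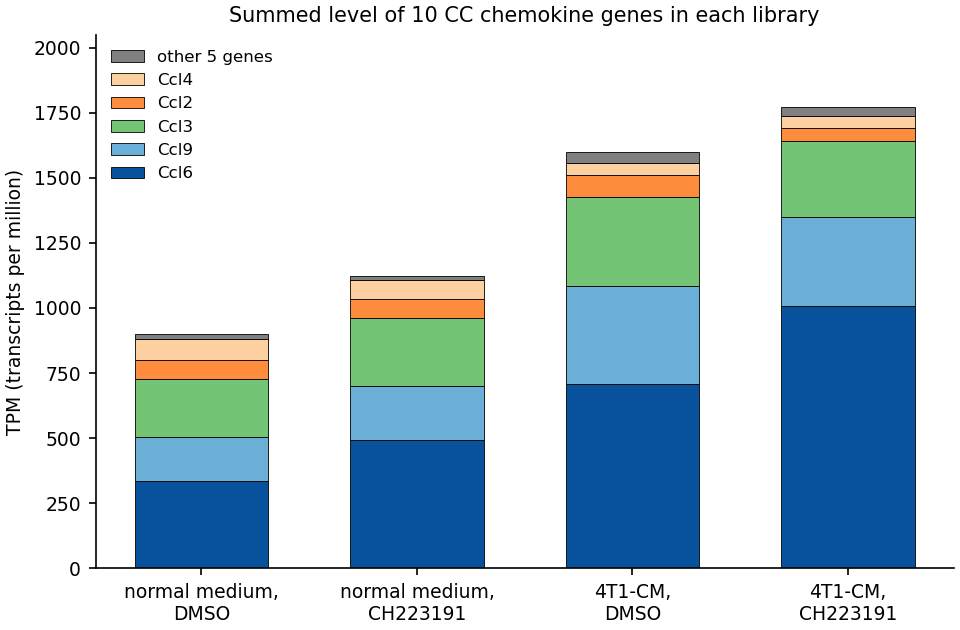
Stacked bars of the level in TPM (reads per gene length, scaled to the same total in each library) of the CC chemokine genes in the 4 libraries, 1 bar for each library, with the 5 least abundant genes drawn together. The bars reach 900 and 1124 TPM in normal medium and 1601 and 1770 TPM in 4T1-CM, and the part of Ccl6 is the largest in each.

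The question of how conditioned medium of tumour cells changes macrophages was addressed with 2 comparisons of 4T1-CM with normal medium that share no library, a pair that received DMSO and a pair that received CH223191. Of the 10 genes, 9 passed the filter of at least 10 reads in at least 1 library, and Ccl12 did not. With DMSO, 4 members were at least 2-fold higher in 4T1-CM, Ccl5, Ccl6, Ccl9 and Ccl22, where 12.2% of all 13715 genes kept were that much higher, and 1 member, Ccl24, was at least 2-fold lower, where 6.12% of all genes were. With CH223191, 3 members were at least 2-fold higher, Ccl5, Ccl6 and Ccl22, beside 12.0% of all genes, and Ccl24 was again the only one at least 2-fold lower, beside 7.86% of all genes. The median log2 ratio of the members was 0.80 with DMSO and 0.30 with CH223191, beside 0.01 and 0.02 for all genes kept. A member that passed the filter only through the libraries in which it was high, such as Ccl5 or Ccl22, had to differ, so these medians cover only the 9 genes kept.

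**Figure D2:**
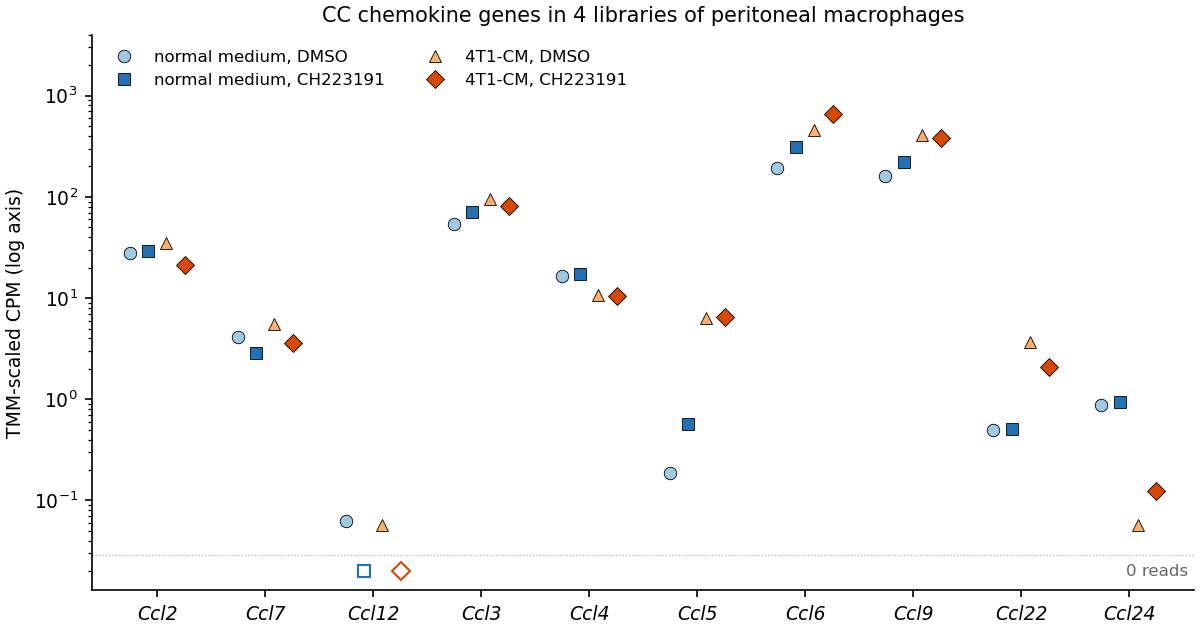
Level of each of the 10 CC chemokine genes in each of the 4 libraries, in TMM-scaled CPM on a log axis, with 1 point for each library and open points for 0 reads. For Ccl3, Ccl5, Ccl6, Ccl9 and Ccl22 both points of 4T1-CM lie above both points of normal medium, and for Ccl4 and Ccl24 they lie below.

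Among the CCR2 ligands no ratio between the media reached 2-fold. Ccl2, the main chemoattractant of monocytes, had 440 reads (DMSO) and 467 reads (CH223191) in normal medium, and 607 (DMSO) and 342 (CH223191) in 4T1-CM. The highest and the lowest value were thus the 2 libraries of 4T1-CM, and the libraries of normal medium lay between them. The log2 ratio of 4T1-CM to normal medium was 0.33 with DMSO (0.15 to 0.51) and -0.48 with CH223191 (-0.69 to -0.28), so the direction was opposite with the antagonist. Ccl7, which also attracts monocytes and lies about 10.1 kb from Ccl2, had 66, 46, 97 and 58 reads in the same order. Both libraries with CH223191 were the lowest, and the intervals of both medium ratios, 0.42 (-0.05 to 0.89) and 0.30 (-0.28 to 0.89), included 0. Ccl12, the third CCR2 ligand, had 1 read in each library with DMSO and none in either library with CH223191, which allows up to 3 reads, or 0.185 CPM in 4T1-CM and 0.189 CPM in normal medium. No ratio was formed for it.

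Ccl3, Ccl4 and Ccl5 behaved differently from each other. Ccl3 had 865 and 1132 reads in normal medium and 1659 and 1330 reads in 4T1-CM, the second of each pair being the library that received CH223191. Both libraries of 4T1-CM were above both of normal medium, by a log2 ratio of 0.80 with DMSO (0.69 to 0.92) and 0.20 with CH223191 (0.09 to 0.32). Ccl4, which lies next to Ccl3 and resembles it most in sequence, had 263, 273, 189 and 172 reads and was lower in both libraries of 4T1-CM. Its log2 ratios were -0.61 (-0.89 to -0.34) with DMSO and -0.70 (-0.98 to -0.42) with CH223191, so that Ccl3 and Ccl4 went in opposite directions in both comparisons. Ccl5 had only 3 and 9 reads in normal medium and 111 and 106 reads in 4T1-CM. The log2 ratio was 4.86 (3.49 to 7.37) with DMSO and 3.46 (2.55 to 4.70) with CH223191, and the width of the intervals comes from the few reads in normal medium. Even so, Ccl5 in 4T1-CM stayed at 18.4 and 18.7 TPM, below the 44.1 to 345 TPM of Ccl3 and Ccl4 over the 4 libraries.

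Ccl6 and Ccl9, the 2 abundant CCR1 ligands, were higher in 4T1-CM with either compound. Ccl6 had 3065 and 4963 reads in normal medium and 7972 and 10690 reads in 4T1-CM. It was the only member whose interval for CH223191 against DMSO lay above 0 in both media, and the log2 ratio of the media was 1.24 (1.18 to 1.30) with DMSO and 1.08 (1.03 to 1.13) with CH223191. The antisense gene E230016K23Rik overlaps the whole length of Ccl6 and had 1, 6, 18 and 16 reads. Whether reads were counted by strand is not given, and the effect of the overlap on the reads of Ccl6 was not tested. Ccl9 had 2578, 3500, 7167 and 6146 reads, with both libraries of 4T1-CM above both of normal medium. Its log2 ratio was 1.34 (1.27 to 1.41) with DMSO, or 2.53-fold, and 0.78 (0.72 to 0.84) with CH223191, or 1.72-fold, so that it passed 2-fold in the first comparison and not in the second.

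Ccl22 and Ccl24, whose receptors sit on regulatory T cells and eosinophils, lay at the lower end of the range and moved in opposite directions. Ccl22 had 8 reads in each library of normal medium, and 64 (DMSO) and 34 (CH223191) in 4T1-CM. The log2 ratio was 2.79 (1.80 to 4.14) with DMSO and 1.99 (0.92 to 3.38) with CH223191. Ccl24 had 14 and 15 reads in normal medium and 1 and 2 reads in 4T1-CM. The ratios, -3.41 (-9.34 to -1.23) and -2.66 (-6.11 to -0.83) on the log2 scale, rest on these few reads, and with a prior count of 5 in place of 0.5 the first shifted by 1.61. Of the 5 eosinophil markers only 1, Siglecf, was kept, and Prg2 and Epx had no read in any library. Siglecf was lower in 4T1-CM as well, with 251, 221, 105 and 88 reads, and its part in the result was not tested.

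**Figure D3:**
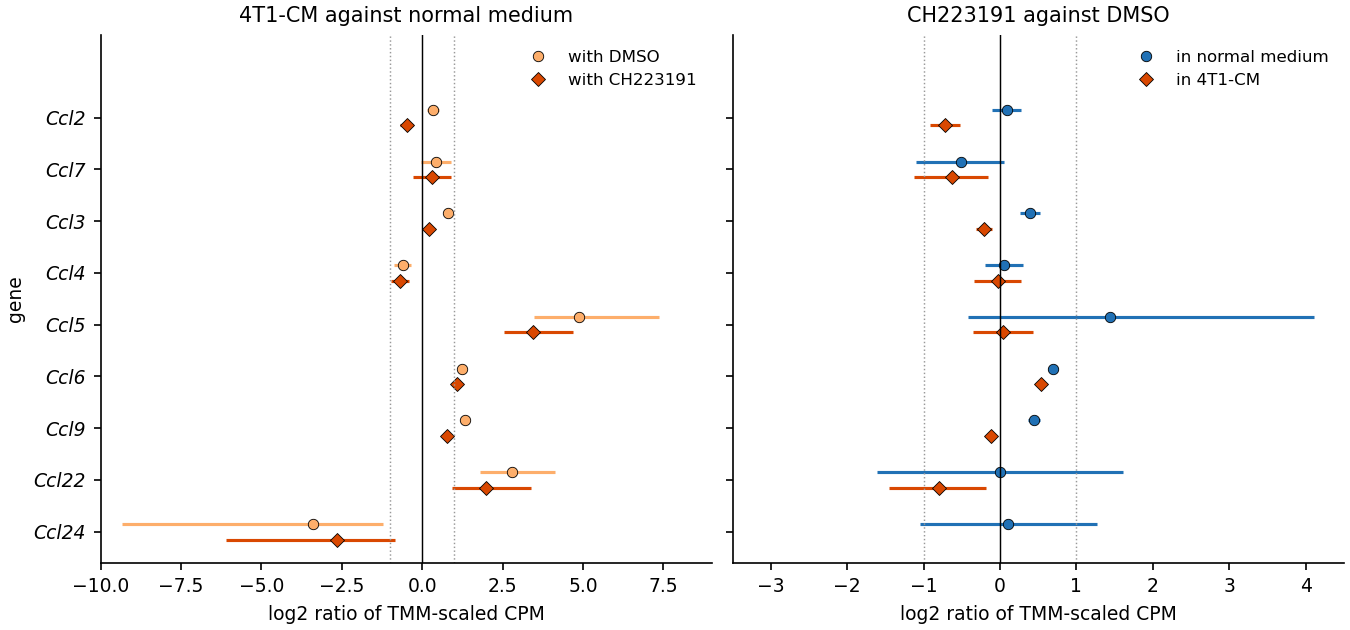
Log2 ratios of the 9 CC chemokine genes kept, for 4T1-CM against normal medium (left) and CH223191 against DMSO (right), with 95% intervals for counting error as bars, no bar where it is smaller than the point and dotted lines at 2-fold. Ccl24 has no point in 4T1-CM on the right, where it had 1 and 2 reads, and Ccl5 has the highest point on both sides.

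The antagonist was compared with its solvent in each medium, again with no library in common. In normal medium, 1 member, Ccl5, was at least 2-fold higher with CH223191, beside 4.84% of all genes, on 9 against 3 reads and with an interval of -0.41 to 4.11 around a log2 ratio of 1.44. None was at least 2-fold lower, beside 3.31% of all genes. In 4T1-CM no member passed 2-fold in either direction, beside 2.80% of all genes higher and 2.62% lower. In normal medium the interval excluded 0 for 3 members, all higher with CH223191, beside 40.9% of all genes kept in either direction. In 4T1-CM it excluded 0 for 6 members, 1 higher and 5 lower, beside 26.8% of all genes. Such an interval is narrow for a gene with many reads.

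In normal medium the 3 members above 0 were Ccl6, with a log2 ratio of 0.70 (0.63 to 0.76), Ccl9 with 0.44 (0.37 to 0.52) and Ccl3 with 0.39 (0.26 to 0.52). In 4T1-CM only Ccl6 was above 0, with 0.53 (0.49 to 0.57). Ccl22 was lower there by the largest ratio, -0.79 (-1.45 to -0.18), followed by Ccl2 with -0.72 (-0.92 to -0.53) and Ccl7 with -0.63 (-1.13 to -0.15). Ccl3 with -0.21 (-0.32 to -0.11) and Ccl9 with -0.11 (-0.16 to -0.06) were lower by little, although their many reads kept the intervals away from 0. Ccl4 and Ccl5 were within counting error, with -0.03 (-0.33 to 0.28) and 0.04 (-0.36 to 0.44).

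Short genes as a class differed between the 2 libraries of normal medium, which touches these ratios. Genes of at most 2000 bases had a median log2 ratio of 0.17 for CH223191 against DMSO in normal medium, beside -0.02 for longer genes, and -0.21 beside 0.06 for 4T1-CM against normal medium with CH223191. The exonic lengths of the members ran from 537 to 3045 bases, and 8 of them were at most 2000 bases long. With the trend over length taken out, an alternative chosen after seeing the data, Ccl3 in normal medium was at 0.18 in place of 0.39, Ccl6 at 0.59 in place of 0.70 and Ccl9 at 0.41 in place of 0.44, and for 4T1-CM against normal medium with CH223191 Ccl2 was at -0.25 in place of -0.48 and Ccl3 at 0.41 in place of 0.20. The 2-fold counts were unchanged by it in all 4 comparisons.

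Whether the response to 4T1-CM differed with the antagonist was asked by subtracting the log2 ratio with DMSO from that with CH223191. The difference was negative for 8 of the 9 members kept, its median was -0.56, beside -0.01 for all genes kept, and the interval lay below 0 for 4 members, beside 17.4% of all genes, and above 0 for none, beside 17.3%. The same number is the effect of CH223191 in 4T1-CM minus that in normal medium, and is no second result. All 9 members were read in the same libraries, so their signs are not separate observations. Ccl2 had the largest of these 4 differences, -0.81 (-1.08 to -0.54), followed by Ccl3 with -0.60 (-0.77 to -0.44), Ccl9 with -0.56 (-0.65 to -0.47) and Ccl6 with -0.17 (-0.24 to -0.09). With the length trend taken out, Ccl6 was at -0.07, within counting error, so that 3 intervals lay below 0, and Ccl4 was at 0.04. For Ccl5, at -1.40 (-3.21 to 0.41), and Ccl22, at -0.80 (-2.29 to 0.70), the reads were too few to exclude 0. Ccl4, at -0.08 (-0.47 to 0.30), and Ccl7, at -0.12 (-0.83 to 0.60), were within counting error, and Ccl24 had 0.75 (-2.35 to 3.84). Among all genes kept, the central 90% of differences ran from -1.17 to 0.99, and 8 of the 9 members, all but Ccl5, lay within that range.

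**Figure D4:**
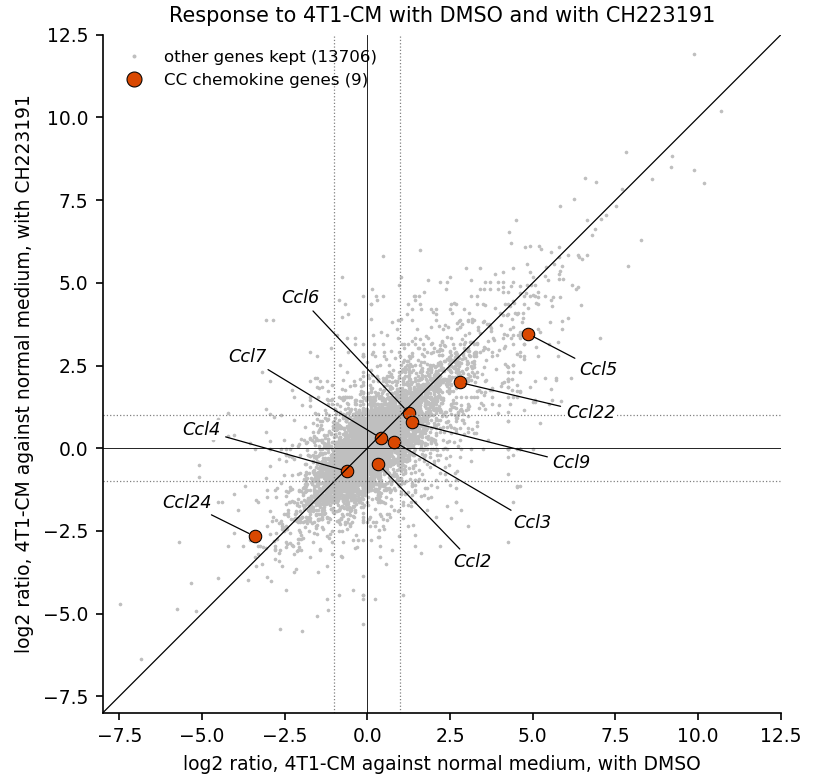
Log2 ratio of 4T1-CM to normal medium with CH223191 (vertical) against that with DMSO (horizontal), 1 point for each gene, with the CC chemokine genes kept in colour, dotted lines at 2-fold and a diagonal for equal responses. Of the 9 members, 8 lie below the diagonal, and Ccl2 is higher in 4T1-CM with DMSO and lower with CH223191.

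An additive fit of medium and inhibitor over the 4 libraries with the quasi-likelihood test of edgeR has 1 residual degree of freedom and reads any difference of response between the media as spread. At an adjusted p below 0.05 over all genes, 5 members were higher in 4T1-CM, beside 16.4% of all genes, and 2 were lower, beside 16.2%. Those that rose were Ccl5 (adjusted p = 2.75e-05), Ccl6 (7.16e-05), Ccl9 (0.00046), Ccl22 (0.0017) and Ccl3 (0.029), and those that fell were Ccl4 (0.012) and Ccl24 (0.015). Of these, Ccl5 and Ccl22 had fewer than 10 reads in both libraries of normal medium, and Ccl24 in both of 4T1-CM, so they passed the filter only where they were high and had to differ, and their p-values give no support. Ccl2, at an adjusted p of 0.81, and Ccl7, at 0.28, did not pass. With DESeq2, Ccl5, Ccl6, Ccl9 and Ccl22 passed, all higher, where 1205 of the 13183 genes tested were higher and 1238 lower. The same limit of the filter holds there for Ccl5 and Ccl22. Ccl3, Ccl4 and Ccl24 did not pass with DESeq2, with adjusted p of 0.083, 0.11 and 0.11. For the inhibitor 0 members passed with either tool, where edgeR called 0.0729% of all genes higher and 0.00729% lower, and the smallest adjusted p of a member was 0.18 for Ccl6 with edgeR and 0.093 with DESeq2, which gave none for Ccl5, Ccl22 and Ccl24. The members with an unadjusted p below 0.05 for the inhibitor in edgeR were Ccl6, higher at 0.00057, beside 4.08% of all genes, and Ccl7, lower at 0.041, beside 2.33%.

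Of the 10 genes, 8 lie on chromosome 11 in 2 groups, and neighbours there differed in their ratios. Coordinates of all 10 in the count table were identical with those of GENCODE M21 on GRCm38. The first group, chr11:82035571-82103400, holds Ccl2, Ccl7 and Ccl12 with Ccl11, which had no read, and spans 67.8 kb. The second, chr11:83525778-83664683, spans 138.9 kb and holds, in the order of their coordinates, Ccl5, Ccl9, Ccl6, Ccl3 and Ccl4. Along it, the log2 ratio of 4T1-CM to normal medium with DMSO was 4.86, 1.34, 1.24, 0.80 and -0.61, falling from each gene to the next. With CH223191 it was 3.46, 0.78, 1.08, 0.20 and -0.70, with Ccl9 and Ccl6 in the other order. Ccl22 on chromosome 8 and Ccl24 on chromosome 5 lie apart from both groups.

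**Figure D5:**
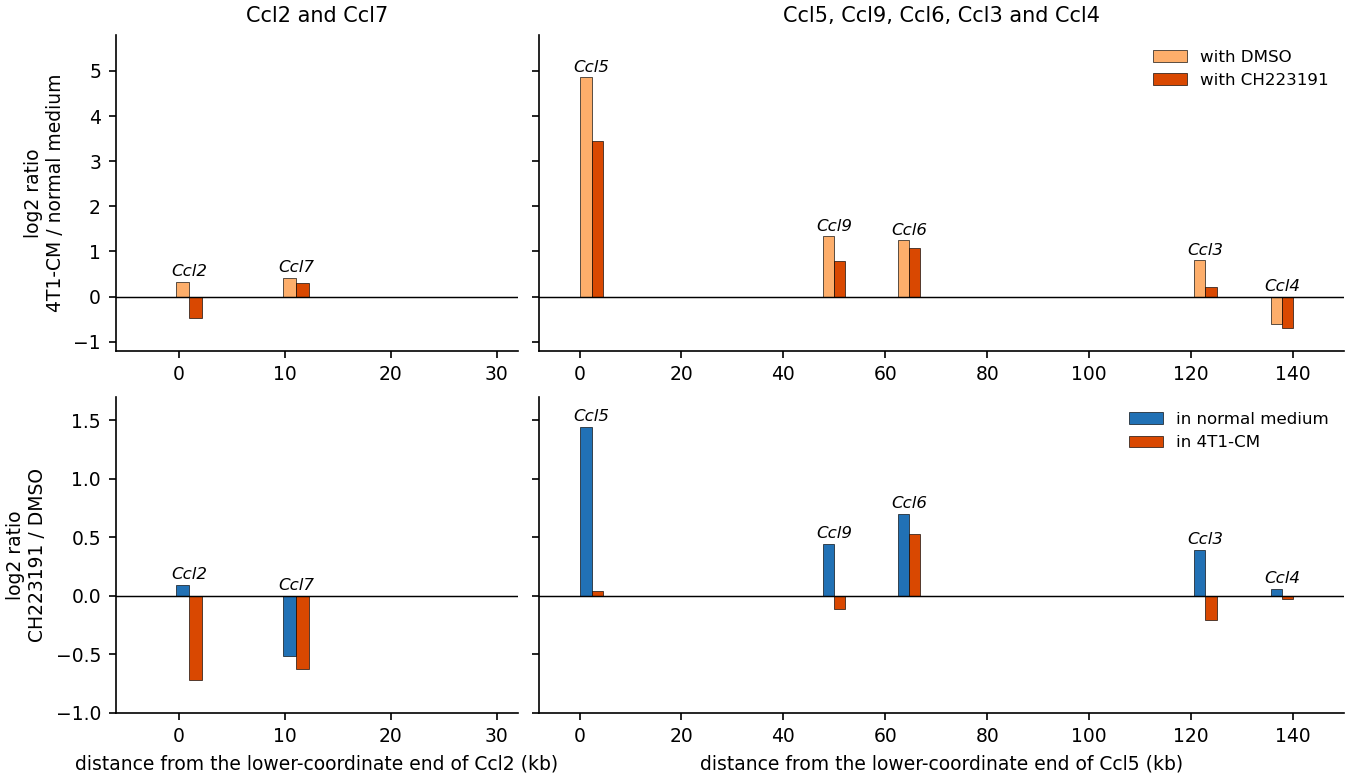
Log2 ratios of the clustered CC chemokine genes against their distance, in kb, from the end of Ccl2 or Ccl5 with the lower coordinate, with 4T1-CM against normal medium above and CH223191 against DMSO below. In the second group the medium ratio with DMSO runs from 4.86 at Ccl5 to -0.61 at Ccl4.

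Likeness of pattern was measured as the Euclidean distance between log2 CPM values centred on their mean over the 4 libraries, a description with only 4 points for each gene. The closest pairs of members were Ccl6 and Ccl9, at 0.50, Ccl3 and Ccl9, at 0.56, and Ccl2 and Ccl7, at 0.61. Among 8318 other genes whose mean over the libraries was 10 CPM or more, the 3 nearest to Ccl9 were Micall2, Dtx3l and Ccr1, the receptor of Ccl9 itself, at distances of 0.03, 0.10 and 0.10. Ccl3 was nearest to Ly96, the partner of the receptor for lipopolysaccharide, at 0.03, then to Ethe1 and Gm1821 at 0.05 each. Ccl6 was nearest to Mylip, Mllt3 and the mitochondrial gene mt-Co1, at 0.26 to 0.30. Ccl5 was nearest to Pde4b, a cyclic AMP phosphodiesterase, at 0.27, then to Smpdl3b and Gm5424, while Ccl22 was nearest to Marcksl1, Lrp8 and Ms4a7, at 0.31 to 0.34. Ccl4 had near neighbours in Plekho1, Scly and Vapb, at 0.02 to 0.03, and those of Ccl2 were Atp5g1, Wdr62 and Gm15922, at 0.15 to 0.19. Ccl7 was nearest to Adra1a, Ssx2ip and Lin9, at 0.14 to 0.18. For Ccl24, whose reads were few, the nearest, Mgll, Efr3b and Ephx1, were 0.54 to 0.65 away.

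Receptors of CC chemokines, typical and atypical, were read in the same libraries. Ccr1, a receptor of Ccl3, Ccl5, Ccl6 and Ccl9, had 1292, 1776, 3392 and 3202 reads in the 4 libraries, with log2 ratios of the media of 1.26 (1.16 to 1.35) and 0.82 (0.74 to 0.90). The atypical receptor Ccrl2 had 1300, 1312, 3197 and 3022 reads, with 1.16 (1.07 to 1.26) and 1.17 (1.08 to 1.27). Ccr7, which guides cells to lymph nodes, went from 0 and 1 reads to 24 and 13. Since Ccr7 passed the filter only in 4T1-CM, where it was high, it had to differ, and its rise gives no support. Unlike Ccr1 and Ccrl2, Ccr2, the receptor of Ccl2, Ccl7 and Ccl12, had between 22 and 32 reads and both intervals included 0. A further 9 receptors, Ccr4 of Ccl22 and Ccr3 of Ccl24 among them, had at most 9 reads in a library. Of 11 further CC chemokine genes, 6 had no read at all, and only Ccl25, with 33 to 47 reads, was kept.

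Pathways that can act on chemokine genes were described by counts over whole lists at 2-fold, with no test. Beside these counts, 12.2% of all genes kept were at least 2-fold higher in 4T1-CM with DMSO and 12.0% with CH223191. At least 2-fold lower were 6.12% and 7.86%. All 15 NF-kB inflammatory genes were kept, and 13 were higher in 4T1-CM with DMSO and 13 with CH223191, with medians of 3.77 and 3.06 on the log2 scale. The most abundant of them were Tnfaip3, an inhibitor of NF-kB, with 2816, 2705, 4512 and 4185 reads and within 2-fold in both comparisons, and Il1b, the gene of interleukin-1 beta, with 2, 8, 3162 and 2252 reads. Il1b, Il6, Cxcl1, Cxcl3 and Nos2 had fewer than 10 reads in both libraries of normal medium, as had Cish and Pdcd1lg2 of later lists. They passed the filter only in 4T1-CM, where they were high, and had to differ there (Pdcd1lg2 with CH223191 alone). Their place in the counts and medians gives no support. Of 12 interferon-stimulated genes kept, 9 and 7 were higher, among them Irf7 with 225, 330, 2954 and 2132 reads. Of 11 GM-CSF and STAT5 genes, 5 and 4 were higher and 2 lower in each comparison, the integrin gene Itgax and the survival gene Bcl2l1. Among 10 IL-4 and STAT6 genes kept, 2 and 3 were higher and 1, Egr2, was lower in each, and the most abundant of them, Arg1, had 520, 936, 32359 and 39348 reads. Of 6 AHR genes kept, 3 were higher in each comparison. Tiparp, an AHR target and the most abundant of them, had 882, 972, 1529 and 1332 reads, and CH223191 against DMSO gave log2 ratios of 0.14 (0.01 to 0.28) in the first pair, normal medium, and -0.09 (-0.20 to 0.02) in the second, 4T1-CM. Cyp1b1, a target of AHR, had 65 and 19 reads in normal medium and 361 and 171 in 4T1-CM, in each medium fewer with CH223191, whereas Cyp1a1 had no read.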

How the data were processed

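RNA of mouse peritoneal macrophages was sequenced in 4 libraries, and the authors deposited 1 table of raw counts (whole numbers, not normalized) for 54532 genes. The submitters' processing notes name HISAT2 2.0.5 and DESeq2. The counter, the genome build and the use of strand for these libraries are not given in the sources used here, and the methods describe alignment and counting for alveolar macrophages only. Columns were matched to samples by their names, and the identifying columns of the table were used as text.

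Where a symbol occurred more than once, the entry with the most reads was kept. A gene was kept if any library held 10 reads or more of it (13715 genes). Libraries were scaled by TMM in edgeR 4.0.16 (R 4.3.3), and log2 ratios were taken of CPM with a prior count of 0.5. TPM used the exonic gene lengths of the table. With 1 library per condition no pair was tested. Intervals are exact Clopper-Pearson intervals of a split of reads, scaled by library size, and the interval of a difference of 2 ratios is a normal approximation with 1 over the reads as variance. No fold is printed where both libraries had 3 reads or fewer, although such ratios stay in the counts (Ccl24 for CH223191 in 4T1-CM, and Ccl12 with no filter). The additive fits used edgeR and DESeq2 1.42.0, with Benjamini-Hochberg adjustment over the genes tested. The alternatives were DESeq2 size factors, total counts, no filter, a filter of 10 reads in each of the 4 libraries, protein-coding genes only, a prior of 5 counts, both additive fits and, added later, removal of a lowess trend over gene length (span 0.3). The procedure was tested on simulated counts with a medium effect, no inhibitor effect and counting error alone. Such counts hold no spread between cultures, so the test cannot show how the procedure behaves where cultures differ.

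The genes and lists were chosen with earlier results of these data known. The text names all 10 genes, the most abundant genes of each list or those that a count of few turns on, and the 3 genes nearest to each in pattern. Sequences came from GENCODE M21 and RefSeq, read with Biopython 1.88 in Python 3.11.15, and figures were drawn with matplotlib 3.10.9. Further cell types checked by markers were resident peritoneal macrophages, dendritic cells, B cells, T and NK cells, mast cells, mesothelial cells and epithelial tumour cells. Their summed levels were at most 34.3 CPM in any library, with Ighm as the main B cell gene (67 to 540 reads, fewer in 4T1-CM). Counts over the list of receptor genes are not reported here.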

Additional observations from a re-analysis of the deposited data

Results flagged for a closer look

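For Ccl3 and Ccl9, the difference between CH223191 and DMSO went in opposite directions in the 2 media. The effect in 4T1-CM minus that in normal medium, the difference of responses given above, was -0.60 on the log2 scale for Ccl3 and -0.56 for Ccl9. Each was higher with CH223191 than with DMSO in normal medium and lower in 4T1-CM, by more than counting error in all 4 comparisons. The difference was not tested, since there is 1 library per condition. With the trend over gene length taken out, the ratio of Ccl3 in normal medium was 0.18 and that of Ccl9 was 0.41.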

How the results depend on the processing

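Under a filter of 10 reads in each of the 4 libraries, the members at least 2-fold higher in 4T1-CM were 2 with DMSO and 1 with CH223191, those lower were 0 with DMSO and 0 with CH223191, and those higher with CH223191 in normal medium were 0, because Ccl5, Ccl22 and Ccl24 were then not kept. The last count was also 0 with a prior count of 5 and in the additive fits of edgeR and DESeq2. With no filter, 1 member was past 2-fold and lower with CH223191 in each medium, which is Ccl12 with 0 against 1 read. All other counts were within 1.5 times. Of 36 single ratios, 7 moved past their interval when the length trend was taken out, an alternative chosen after seeing the data, and none did under the other settings. The difference of responses, recomputed after seeing the data, kept its side of 0 and its call in the 4 members below 0, except that Ccl6 was at -0.07 without the length trend. In normal medium CH223191 against DMSO changed sign for Ccl2 (-0.09), Ccl4 (-0.17), Ccl22 (-0.07) and Ccl24 (-0.06) without the trend, and for Ccl4 and Ccl22 with total counts, all ratios whose interval included 0. No paired analysis was possible because each condition is 1 library without a replicate number. Depth limits Ccl5, Ccl22 and Ccl24 in normal medium or 4T1-CM, and Ccl12 throughout.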
